A study of Homo sapiens with 8 samples.

Results

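The genes described here are 10 that encode enzymes of serine synthesis and of one-carbon metabolism and the paired subunits of an amino acid carrier: PHGDH, PSAT1, PSPH, SHMT1, SHMT2, MTHFD2, MTHFD1L, ALDH1L2, SLC7A5 and SLC3A2. They were taken by symbol from a table of 57905 genes, each symbol matched 1 gene, and all 10 passed the filter on low values. Transcript levels were measured by RNA sequencing of total RNA in DU145 and PC3, established human prostate cancer lines, the first derived from a metastasis in brain and the second from one in bone. In each line, cells that received a lentivirus carrying TRIB1 were compared with cells that received the empty lentivirus, with 2 libraries for each of the 4 groups: DU145 TRIB1, DU145 control, PC3 TRIB1 and PC3 control. All 4 groups had thus received a lentivirus, and the comparison asks which transcripts differ when TRIB1, a pseudokinase that presents substrates to the ubiquitin ligase COP1, is raised. The labels do not say whether the libraries of a group came from separate cultures or infections, or from pooled or clonal cells, and each p-value therefore reflects the spread of 2 libraries a group, part or all of which may be technical.

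Serine is made from the glycolytic intermediate 3-phosphoglycerate by PHGDH, PSAT1 and PSPH in turn. SHMT1 in the cytosol and SHMT2 in mitochondria split serine into glycine and a one-carbon unit carried on folate. In mitochondria, MTHFD2 oxidises that unit, MTHFD1L releases it as formate for the synthesis of purines and thymidylate in the cytosol, and ALDH1L2 oxidises it to carbon dioxide while making NADPH. SLC7A5 (LAT1) is the transporting subunit of an exchanger of large neutral amino acids such as leucine, and SLC3A2 (CD98 heavy chain) is the glycoprotein that brings it to the cell surface. Many of these genes are known targets of ATF4, a transcription factor whose translation rises when amino acids run short, and tumour cells often express them highly.

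RefSeq promoter windows on GRCh38.p14, from 250 bases before to 50 after a start site, matched 7 of the 10 genes with 12 windows. They were searched on both strands for TGATGNAA, the core of the composite element that ATF4 binds with C/EBP factors, and for CACGTG, the E-box of MYC and related factors, letters that do not overlap here. TGATGNAA was found in 4 windows of 2 genes, 3 of them overlapping windows of MTHFD1L that hold the same copy, and in 3.62% of all 35116 windows. CACGTG was found in 4 windows of 2 genes, 3 of them the same overlapping windows of MTHFD1L with 1 copy, and in 7.26% of all windows. Printed here, as examples of windows with both motifs, either or neither, are MTHFD1L, with both letters, at chr6:150866083-150866382 on the plus strand, SLC3A2, with TTACATCA, a match to TGATGNAA on the other strand, at chr11:62881449-62881748 on the plus strand, SLC7A5, with CACGTG, at chr16:87869458-87869757 on the minus strand, and PSAT1, which holds neither, at chr9:78296875-78297174 on the plus strand. Both printed matches to TGATGNAA lie after the start site of the window printed, at offset 24 in MTHFD1L and 37 in SLC3A2. The other overlapping windows of MTHFD1L, with other start sites, place the same copy before the start, at offsets -90 and -129. Other windows of SLC3A2 and another of MTHFD1L held neither motif. The motifs are in capitals, and a match is a run of letters, not a bound site.
MTHFD1L promoter: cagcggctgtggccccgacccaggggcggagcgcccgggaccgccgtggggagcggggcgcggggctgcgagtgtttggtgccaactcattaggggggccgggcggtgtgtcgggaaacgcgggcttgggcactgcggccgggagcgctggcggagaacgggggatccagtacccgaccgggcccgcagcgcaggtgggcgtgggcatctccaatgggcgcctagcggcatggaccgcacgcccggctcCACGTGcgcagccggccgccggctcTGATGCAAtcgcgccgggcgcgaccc
SLC3A2 promoter: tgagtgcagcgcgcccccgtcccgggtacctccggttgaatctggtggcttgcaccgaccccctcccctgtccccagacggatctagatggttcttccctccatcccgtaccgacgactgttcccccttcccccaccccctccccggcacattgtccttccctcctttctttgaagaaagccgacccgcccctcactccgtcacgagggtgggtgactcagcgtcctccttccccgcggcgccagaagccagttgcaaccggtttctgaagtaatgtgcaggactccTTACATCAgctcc
SLC7A5 promoter: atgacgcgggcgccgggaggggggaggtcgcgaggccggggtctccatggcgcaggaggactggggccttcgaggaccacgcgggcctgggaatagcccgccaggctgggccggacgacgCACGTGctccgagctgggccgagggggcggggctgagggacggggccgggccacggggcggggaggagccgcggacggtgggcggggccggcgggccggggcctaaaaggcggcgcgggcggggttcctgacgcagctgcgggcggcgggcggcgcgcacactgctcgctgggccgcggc
PSAT1 promoter: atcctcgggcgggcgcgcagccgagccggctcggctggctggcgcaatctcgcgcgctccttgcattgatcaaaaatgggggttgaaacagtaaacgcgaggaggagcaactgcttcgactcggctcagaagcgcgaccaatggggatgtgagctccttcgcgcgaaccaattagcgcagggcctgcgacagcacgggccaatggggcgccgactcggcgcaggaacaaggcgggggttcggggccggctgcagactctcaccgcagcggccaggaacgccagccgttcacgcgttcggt

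Values are in TPM, which scales reads by gene length and to the same total in each library. Levels of different genes can therefore be set side by side only as far as the gene lengths used are right, and these are not known. The orders, sums and ratios of different genes given below rest on them. Library depth is unknown too. Each gene was tested with limma on log2(TPM + 1) over 25982 genes, with Benjamini-Hochberg adjustment over all of them. A gene is said to have risen or fallen where its adjusted p was below 0.05, and a log2 change of TRIB1 minus control on this scale understates that of a low gene, the more so the lower its level. TRIB1 itself stood at 69.4 and 62.3 TPM in DU145 TRIB1 libraries, against 10.1 and 7.94 TPM in DU145 controls, and at 241 and 245 TPM in PC3 TRIB1 libraries, against 45.1 and 50.8 TPM in PC3 controls. All 5 epithelial markers reached 1 TPM in each library, and their sum was 1279 to 1396 TPM in DU145 TRIB1 and 1389 to 1428 TPM in DU145 control libraries, but 2770 to 2815 TPM in PC3 TRIB1 and 1453 to 1505 TPM in PC3 control libraries. Of 6 leukocyte markers 4 were below 1 TPM in each library. The sum of the 6, most of it CD68, a lysosomal protein gene that is not confined to leukocytes, was 8.32 to 8.68 TPM in DU145 TRIB1 and 27.9 to 33.8 TPM in DU145 control libraries, and 32.04 to 33.6 TPM in PC3 TRIB1 and 18.7 to 22.5 TPM in PC3 control libraries. The sum of 5 fibroblast markers was 50.6 to 53.9 TPM in DU145 TRIB1 and 62.8 to 67.1 TPM in DU145 control libraries, and 41.3 to 46.1 TPM in PC3 TRIB1 and 59.7 to 71.2 TPM in PC3 control libraries. Most of it was COL1A1, at 38.2 TPM in PC3 TRIB1 and 63.2 TPM in PC3 control cells, while LUM stood at 3.26 TPM in PC3 TRIB1 and 0.858 TPM in PC3 control cells, and at 0 in each DU145 library. The second DU145 TRIB1 library stood apart: short RNAs and mitochondrial genes took 12.3% of its TPM, against 8.31% to 10.2% in the other 7.

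**Figure D1:**
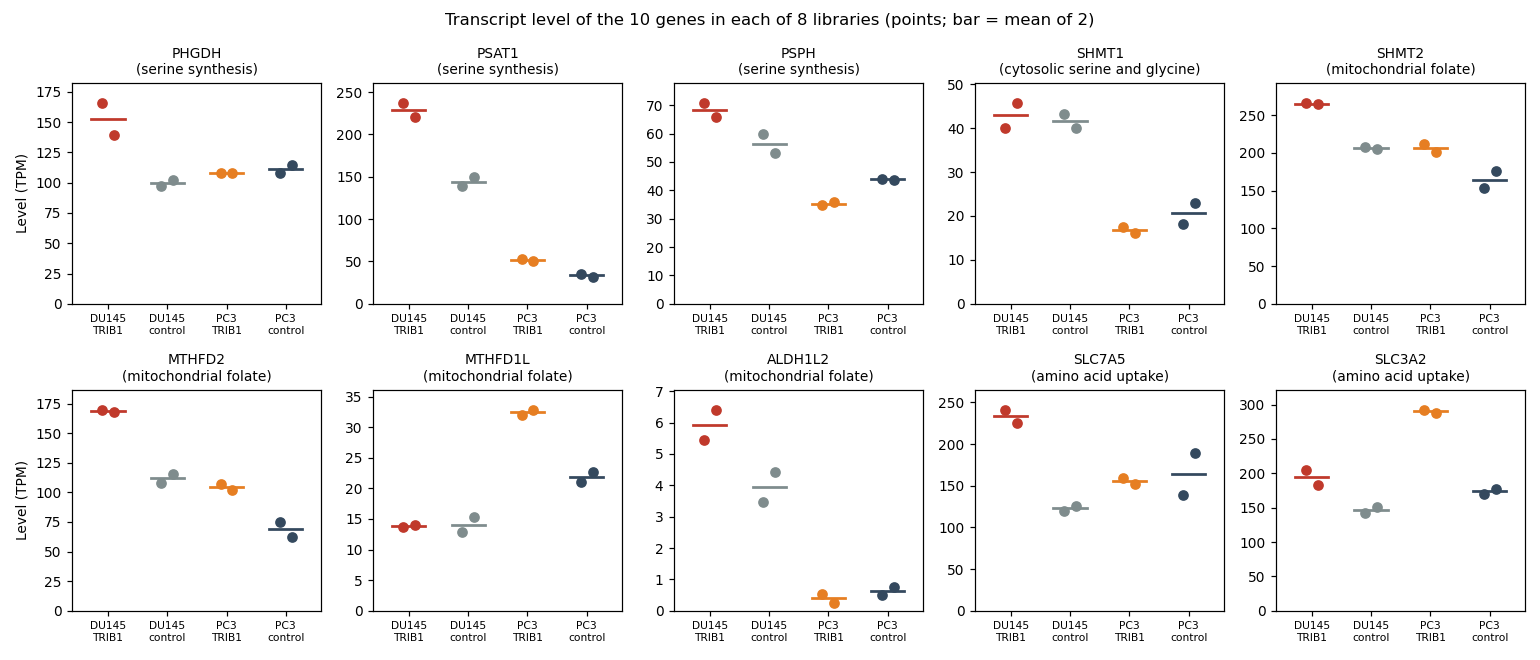
Level of each of the 10 genes in TPM (vertical axes from 0) in each of the 8 libraries; points are libraries and bars the mean of 2. PSAT1, MTHFD2, SHMT2 and SLC3A2 stand higher in the TRIB1 libraries of both lines, SLC7A5, PHGDH, PSPH and ALDH1L2 in those of DU145, and MTHFD1L in those of PC3.

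With TRIB1, 5 of the 10 genes rose in DU145 (PHGDH, PSAT1, MTHFD2, SLC7A5 and SLC3A2) and 0 fell. Of all genes tested in DU145, 0.712% rose and 2.01% fell. In PC3 a partly different set of 5 rose (PSAT1, SHMT2, MTHFD2, MTHFD1L and SLC3A2) and 1, PSPH, fell, where 7.67% of all genes tested rose and 9.33% fell. When the test took only genes reaching 5 TPM in a group, a class nearer to these 10 in level, 1.37% rose and 3.86% fell in DU145, and 12.4% rose and 16.0% fell in PC3. No change reached a log2 of 1, the fold asked for in the design of the study. The median log2 change of the 10 was 0.45 in DU145 and 0.14 in PC3, against -0.04 and -0.01 over all genes tested. These medians count ALDH1L2, whose level in PC3 was too low to compare. Without it the middle gene is SLC3A2, at 0.40, in DU145 and SHMT2, at 0.33, in PC3, so the gap between the medians rests on that gene. In DU145 the libraries of the groups did not overlap for 8 of the 10, all 8 higher with TRIB1, where 17.6% of all genes were higher and 29.7% lower without overlap. In PC3 they did not overlap for 5 higher and 2 lower genes, where 24.5% and 29.8% of all genes were higher and lower without overlap. The 10 genes were chosen with earlier results of these data known, so these counts are a description only.

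The DU145 calls lie close to the threshold, at adjusted p of 0.0192 to 0.0491, and depend on which libraries enter the fit. All 8 libraries share 1 estimate of spread. Leaving out a PC3 library therefore changes that spread, but not the log2 changes in DU145. The 5 risen genes became 0 when any 1 DU145 control or any 1 PC3 TRIB1 library was left out, 1 (PHGDH) without the first DU145 TRIB1 library and 3 (PHGDH, PSAT1 and SLC3A2) without the second, the library that stood apart. The direction of these 5 held under all 17 alternatives. In PC3, SLC3A2 and PSAT1 kept an adjusted p below 0.05 under all 17 alternatives, and the 5 risen genes became 2 without either PC3 TRIB1 library. In bulk samples of this kind, fewer cells with a transcript and less of it per cell cannot be told apart.

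**Figure D2:**
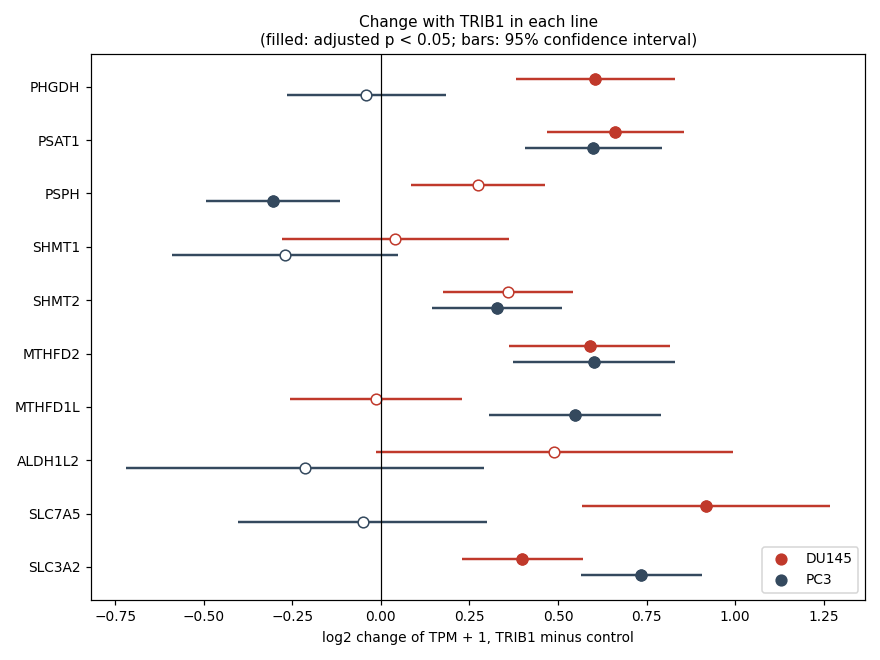
Log2 change of TPM + 1 (horizontal axis, TRIB1 minus control) for each gene in DU145 (upper point of each pair) and PC3 (lower), with 95% confidence intervals; filled points passed an adjusted p of 0.05. SLC7A5 has the highest estimate in DU145, 0.92, and SLC3A2 in PC3, 0.74.

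Among the enzymes of serine synthesis, PSAT1 rose in both lines. Gene intervals are given here as listed in the deposited table. The submitters' processing notes name hg38, but 365 of 52338 listed starts equal those of GENCODE 29 on that build, so the build of the intervals is unknown. PSAT1 (ENSG00000135069, chromosome 9, 80912059 to 80944370), the aminotransferase of the second step, stood at 237 and 220 TPM in DU145 TRIB1 libraries, against 139 and 150 TPM in DU145 controls. In PC3 it stood at 53.0 and 50.04 TPM with TRIB1, against 35.3 and 32.05 TPM in controls. The TRIB1 libraries were thus above both controls in each line, at levels several times lower in PC3. The mean was 229 ± 11.96 TPM in DU145 TRIB1 and 144 ± 7.92 TPM in DU145 control cells (SD, n = 2 each; log2 change 0.66, SE 0.08, limma adjusted p = 0.0192), and 51.5 ± 2.10 TPM in PC3 TRIB1 and 33.7 ± 2.31 TPM in PC3 control cells (log2 change 0.60, SE 0.08, limma adjusted p = 0.00701). The DU145 call held under 9 of 17 alternatives. The promoter window of PSAT1 printed above holds neither TGATGNAA nor CACGTG.

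PHGDH (ENSG00000092621, chromosome 1, 120202421 to 120277299), the dehydrogenase that commits 3-phosphoglycerate to serine, rose in DU145 alone. It stood at 166 and 139 TPM in DU145 TRIB1 libraries, against 97.1 and 102 TPM in DU145 controls (log2 change 0.61, SE 0.09, limma adjusted p = 0.0347, held under 8 of 17 alternatives). In PC3 it stood at 108 and 108 TPM with TRIB1, against 107.7 and 115 TPM in controls, so that both TRIB1 libraries lay within the range of the controls (log2 change -0.04, 95% confidence interval -0.27 to 0.18, limma adjusted p = 0.837). The change in DU145 exceeded that in PC3 by 0.65 on the log2 scale (SE 0.13, limma adjusted p = 0.0359, held under 6 of 16 alternatives).

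PSPH (ENSG00000146733, chromosome 7, 56078744 to 56119141), the phosphatase of the last step, did not change alike in the 2 lines. DU145 TRIB1 libraries held 70.8 and 65.9 TPM, against 59.7 and 53.2 TPM in DU145 controls, a difference that did not pass (log2 change 0.27, limma adjusted p = 0.147). PC3 TRIB1 libraries held 34.8 and 35.9 TPM, against 44.1 and 43.7 TPM in PC3 controls. That fall was small and narrowly called (log2 change -0.30, SE 0.08, limma adjusted p = 0.0466), and it passed under 5 of 17 alternatives, not after either other scaling (adjusted p = 0.0917 and 0.0946) and not without any 1 library other than a DU145 control (adjusted p = 0.0597 to 0.161). The difference of the changes, 0.58, passed the test (SE 0.11, limma adjusted p = 0.0306, held under 7 of 16 alternatives). A nearby pseudogene copy, PSPHP1, was listed at 3.34 and 7.50 TPM in DU145 TRIB1 libraries, against 8.50 and 9.02 TPM in DU145 controls, and at 1.37 and 1.43 TPM in PC3 TRIB1 libraries, against 3.07 and 0 TPM in PC3 controls, so PSPH values may hold or lack shared reads and are uncertain to that extent. Summed, PHGDH, PSAT1 and PSPH took 474 and 426 TPM in DU145 TRIB1 libraries, against 295 and 305 TPM in DU145 controls, but 196 and 194 TPM in PC3 TRIB1 libraries, against 187 and 190.5 TPM in PC3 controls.

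Both mitochondrial enzymes that take up and oxidise the one-carbon unit stood higher with TRIB1 in both lines. MTHFD2 (ENSG00000065911, chromosome 2, 74425689 to 74444692), the mitochondrial dehydrogenase and cyclohydrolase, stood at 170 and 168 TPM in DU145 TRIB1 libraries, against 108 and 116 TPM in DU145 controls. PC3 TRIB1 libraries held 107 and 102 TPM, against 74.8 and 62.5 TPM in PC3 controls. MTHFD2 rose by close log2 amounts, 0.59 in DU145 (SE 0.09, limma adjusted p = 0.038) and 0.60 in PC3 (SE 0.09, limma adjusted p = 0.011). The difference of these changes was -0.01, with a 95% confidence interval of -0.34 to 0.31. In DU145 the call held under 7 of 17 alternatives and in PC3 under 14, not without either PC3 TRIB1 library (adjusted p = 0.0736 and 0.0612).

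SHMT2 (ENSG00000182199, chromosome 12, 57623110 to 57628714), the mitochondrial serine hydroxymethyltransferase, stood at 266 and 264 TPM in DU145 TRIB1 libraries, against 208 and 205 TPM in DU145 controls. It held 212 and 201 TPM in PC3 TRIB1 libraries, against 153 and 176 TPM in PC3 controls. Neither pair of groups overlapped, and the changes were of like size, 0.36 in DU145 (SE 0.07, limma adjusted p = 0.0745) and 0.33 in PC3 (SE 0.07, limma adjusted p = 0.0346). The PC3 change alone passed, under 7 of 17 alternatives and, of those leaving out a library, without a PC3 control only (adjusted p = 0.0674 to 0.157 without another), and in DU145 SHMT2 passed in 4, among them median-of-ratios scaling (adjusted p = 0.0479). The difference between the changes was 0.03, with a 95% confidence interval of -0.23 to 0.29, so the lines were not shown to differ. NDUFA4L2 overlaps SHMT2 by its end on the other strand, at group means of 3.52 to 9.54 TPM.

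MTHFD1L (ENSG00000120254, chromosome 6, 151186685 to 151423023), the mitochondrial formate-producing synthetase, rose in PC3. PC3 TRIB1 libraries held 31.99 and 32.8 TPM, against 21.1 and 22.6 TPM in PC3 controls (log2 change 0.55, SE 0.10, limma adjusted p = 0.0176). This call was lost on leaving out the first or second PC3 TRIB1 library or the first PC3 control (adjusted p = 0.0578 to 0.0874). DU145 TRIB1 libraries held 13.8 and 13.98 TPM, between the 12.9 and 15.3 TPM of DU145 controls (log2 change -0.01, 95% confidence interval -0.26 to 0.23). The change in DU145 minus that in PC3, -0.56, did not pass the test (SE 0.14, limma adjusted p = 0.0632), although 2 of 16 alternatives passed it. The MTHFD1L window printed above holds both TGATGNAA and CACGTG.

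ALDH1L2 (ENSG00000136010, chromosome 12, 105413568 to 105460383), the mitochondrial formyltetrahydrofolate dehydrogenase, was the lowest of the 10 in each group and passed the filter only through DU145. DU145 TRIB1 libraries held 5.43 and 6.41 TPM, against 3.46 and 4.42 TPM in DU145 controls, without overlap but short of the test (log2 change 0.49, 95% confidence interval -0.02 to 0.99, limma adjusted p = 0.296). In PC3 it was listed at 0.530 and 0.261 TPM with TRIB1 and at 0.489 and 0.744 TPM in controls, levels too low to compare. The cytosolic counterpart of SHMT2, SHMT1 (ENSG00000176974, chromosome 17, 18231187 to 18244969), did not pass in either line. SHMT1 stood at 40.0 and 45.7 TPM in DU145 TRIB1 libraries, against 43.3 and 39.9 TPM in DU145 controls, and at 17.5 and 16.1 TPM in PC3 TRIB1 libraries, against 18.3 and 22.9 TPM in PC3 controls (log2 change 0.04, limma adjusted p = 0.939, and -0.27, limma adjusted p = 0.232). The 4 mitochondrial genes together took 455 and 453 TPM in DU145 TRIB1 libraries, against 332 and 341 TPM in DU145 controls, and 351 and 336 TPM in PC3 TRIB1 libraries, against 249 and 262 TPM in PC3 controls.

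Of the subunits of the amino acid exchanger, SLC7A5 changed differently in the lines. SLC7A5 (ENSG00000103257, chromosome 16, 87863629 to 87897245) stood at 241 and 226 TPM in DU145 TRIB1 libraries, against 120.1 and 126 TPM in DU145 controls. In PC3 it stood at 160 and 153 TPM with TRIB1, inside the wide range of 138 and 189 TPM in controls. SLC7A5, the transporting subunit, rose in DU145 (233 ± 10.9 TPM in TRIB1 and 123 ± 4.23 TPM in control cells, SD, n = 2 each; log2 change 0.92, SE 0.14, limma adjusted p = 0.0371) and had an interval across 0 in PC3 (log2 change -0.05, 95% confidence interval -0.40 to 0.30). The difference of the changes was 0.97 (SE 0.20, limma adjusted p = 0.0398). Both the DU145 call and the difference held under 7 alternatives, of 17 and of 16, and both ended without any 1 DU145 or PC3 TRIB1 library or any 1 DU145 control (adjusted p = 0.0992 to 0.183). Of the pseudogene copies, SLC7A5P1 stood at group means of 6.77 TPM in DU145 TRIB1, 5.92 TPM in DU145 control, 7.03 TPM in PC3 TRIB1 and 11.4 TPM in PC3 control cells, and SLC7A5P2 reached 17.0 TPM in the second PC3 control, the library with the highest PC3 value of SLC7A5, so reads may have been shared.

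SLC3A2 (ENSG00000168003, chromosome 11, 62623518 to 62656352), the chaperone subunit, rose in both lines. PC3 TRIB1 libraries held 292 and 288 TPM, against 170 and 177 TPM in PC3 controls (290.2 ± 3.001 TPM in TRIB1 and 174 ± 4.97 TPM in control cells, SD, n = 2 each; log2 change 0.74, SE 0.07, limma adjusted p = 0.00306). DU145 TRIB1 libraries held 205 and 183 TPM, against 142 and 151 TPM in DU145 controls (log2 change 0.40, SE 0.07, limma adjusted p = 0.0491). The DU145 call passed under 5 of 17 alternatives and ended after upper-quartile scaling (adjusted p = 0.0659). The change in DU145 less that in PC3 came to -0.34 and did not pass (SE 0.10, limma adjusted p = 0.0949). SLC3A2 is also the heavy chain of other light subunits than SLC7A5.

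The ratio of the subunits moved in opposite directions in the lines. SLC7A5 stood at 1.18 and 1.23 TPM per TPM of SLC3A2 in DU145 TRIB1 libraries, against 0.843 and 0.835 in DU145 controls, and at 0.546 and 0.530 in PC3 TRIB1 libraries, against 0.811 and 1.07 in PC3 controls. The ratio was higher than in both controls in each DU145 TRIB1 library and lower than in both in each PC3 TRIB1 library, and no test was made of it. The ratio of PHGDH to PSAT1 was 0.699 and 0.632 in DU145 TRIB1 libraries, against 0.700 and 0.681 in DU145 controls, but 2.04 and 2.16 in PC3 TRIB1 libraries, against 3.05 and 3.58 in PC3 controls. Mitochondrial SHMT2 exceeded cytosolic SHMT1 6.64 and 5.78 times in DU145 TRIB1 libraries, against 4.80 and 5.14 times in DU145 controls, and 12.1 and 12.5 times in PC3 TRIB1 libraries, against 8.38 and 7.69 times in PC3 controls. The ratio of MTHFD2 to MTHFD1L was 12.3 and 12.01 in DU145 TRIB1 libraries, against 8.40 and 7.59 in DU145 controls, and 3.34 and 3.11 in PC3 TRIB1 libraries, inside the 3.54 and 2.77 of PC3 controls.

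**Figure D3:**
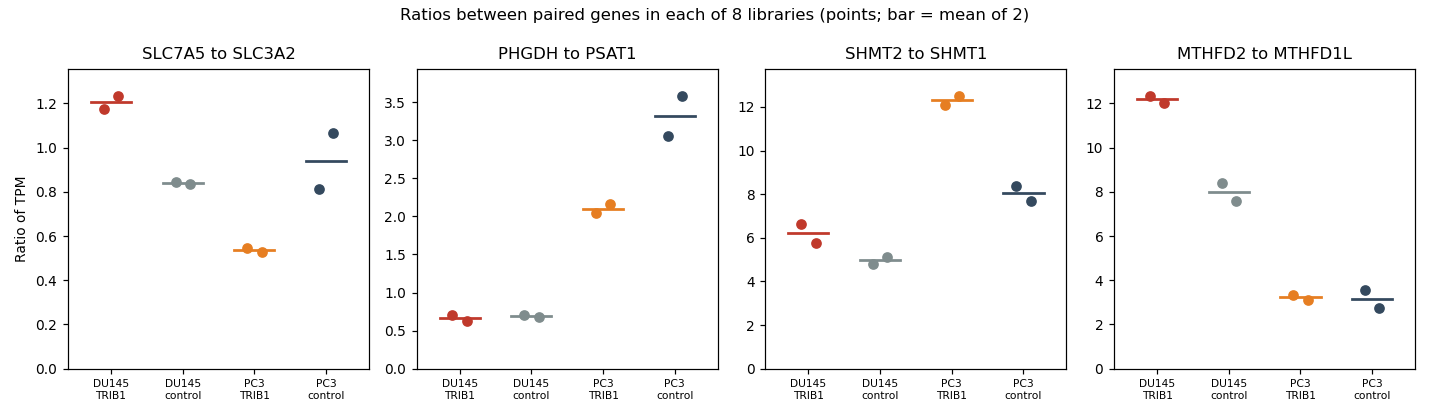
Ratio of TPM between 4 pairs of genes (vertical axes from 0) in each of the 8 libraries; points are libraries and bars the mean of 2. The ratio of SLC7A5 to SLC3A2 is higher with TRIB1 in DU145, at a mean of 1.204 against 0.839 in controls, and lower in PC3, at 0.538 against 0.939 in controls.

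The lines also differed without added TRIB1. Control PC3 cells held 33.7 ± 2.31 TPM of PSAT1, against 144 ± 7.92 TPM in control DU145 cells (SD, n = 2 each; log2 difference -2.07, SE 0.08, limma adjusted p = 1.61e-05). ALDH1L2 was at 0.617 ± 0.181 TPM in control PC3 cells, against 3.94 ± 0.675 TPM in control DU145 cells (SD, n = 2 each), a description only, since it passed the filter through DU145. SHMT1 was lower in control PC3 too, at 20.6 against 41.6 TPM in control DU145 (log2 difference -0.99), as were MTHFD2, PSPH and SHMT2 (log2 differences -0.70, -0.35 and -0.33). MTHFD1L was higher in control PC3, at 21.9 against 14.1 TPM in control DU145 (log2 difference 0.61, limma adjusted p = 0.00368), and so was SLC3A2 (0.24, limma adjusted p = 0.0305, lost when any 1 control or any 1 PC3 TRIB1 library was left out). In all, 2 of the 10 were higher and 6 lower in control PC3 (limma adjusted p below 0.05), where 18.6% of all genes tested were higher and 28.4% lower. Among the 6 was ALDH1L2, which entered the test only through its level in DU145. That background depends on the scaling: 4840 genes were higher and 7376 lower as deposited, against 6099 and 5804 after median-of-ratios scaling, which moved the median difference of all genes by more than 0.1, to -0.01 from -0.18 as deposited. After that scaling, PSPH and SHMT2 did not pass (log2 differences -0.14 and -0.11), whereas PHGDH and SLC7A5 did (adjusted p = 0.0149 and 0.0153).

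**Figure D4:**
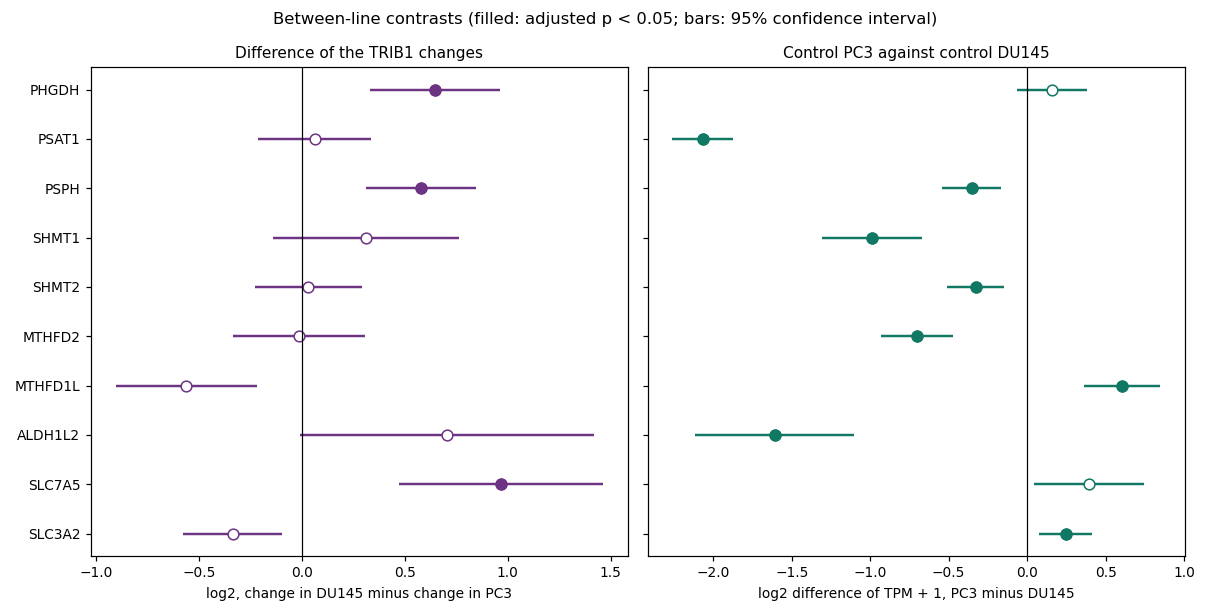
Left, the log2 change with TRIB1 in DU145 minus that in PC3; right, the log2 difference of control PC3 minus control DU145, with 95% confidence intervals; filled points passed an adjusted p of 0.05. The signed change of PHGDH, PSPH and SLC7A5 is higher in DU145 than in PC3, by 0.65, 0.58 and 0.97, and PSAT1 has the lowest control difference, -2.07.

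Of the 10 changes with TRIB1, 3 were thus higher in DU145 than in PC3 and 0 lower, where the difference of the changes was higher in DU145 for 4.01% and lower for 5.36% of all genes tested. The order of levels within a group put SHMT2 first in DU145 TRIB1 and DU145 control cells and SLC3A2 first in PC3 TRIB1 and PC3 control cells. The order ran SHMT2, SLC7A5, PSAT1, SLC3A2, MTHFD2, PHGDH, PSPH, SHMT1, MTHFD1L and ALDH1L2 in DU145 TRIB1 cells, where the libraries of SLC7A5 and PSAT1 overlapped. In DU145 controls SLC7A5 stood below SLC3A2 and PSAT1, which overlapped each other, and the rest kept their places. PC3 TRIB1 cells had the order SLC3A2, SHMT2, SLC7A5, PHGDH, MTHFD2, PSAT1, PSPH, MTHFD1L, SHMT1 and ALDH1L2, with no overlap between neighbours. In PC3 controls SLC3A2, SHMT2 and SLC7A5 overlapped in turn, PSPH stood above PSAT1, and MTHFD1L overlapped SHMT1.

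Over the 8 libraries, the genes closest to PSAT1 by the root mean square distance of centred log2(TPM + 1) values were SPTAN1, a spectrin gene, at 0.12, LINC02615 at 0.13 and the proton pump subunit gene ATP6V1E1 at 0.18. Closest to ALDH1L2 were TUBB2B, a tubulin gene, at 0.13, ARHGEF26 at 0.13 and the protease gene PCSK6 at 0.15. ALDH1L2 passed the filter only through DU145 and was below 1 TPM in PC3, where the added 1 TPM narrows its distance from DU145. Its neighbours are therefore a description only. SHMT1 was approached by AP3D1, a vesicle coat subunit gene, at 0.06, LDB1 at 0.07 and the cyclin gene CCNF at 0.07, and MTHFD2 by GHITM at 0.12, ZBTB44 at 0.12 and the calmodulin gene CALM2 at 0.13. The search covered 13526 genes with a symbol and a mean of 5 TPM or more, and the 8 points of a gene share the 2 lines.

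Related genes were counted on lists chosen for their roles. Of all genes tested, 0.712% rose and 2.01% fell in DU145, and 7.67% rose and 9.33% fell in PC3. The ATF4 gene itself, chosen after its values were seen, stood at 334 and 285 TPM in DU145 TRIB1 libraries, against 252 and 261 TPM in DU145 controls, and at 215 and 209 TPM in PC3 TRIB1 libraries, against 178 and 163 TPM in PC3 controls, without passing the test (log2 change 0.26, limma adjusted p = 0.2, and 0.31, limma adjusted p = 0.0641). Of 23 amino acid response factors and targets, 2 rose and 0 fell in DU145, with a median log2 change of 0.19. They were ASNS, the asparagine synthetase gene (71.8 TPM in TRIB1 and 45.2 TPM in control cells, log2 change 0.66), and PYCR1, a proline synthesis gene (132 TPM in TRIB1 and 78.4 TPM in control cells, log2 change 0.75). In PC3, 6 of the 23 rose and 4 fell, with a median of 0.29. Among the 6 were the stress factor genes ATF3 (94.95 TPM in TRIB1 and 25.8 TPM in control cells, log2 change 1.84) and DDIT3 (82.3 TPM in TRIB1 and 35.8 TPM in control cells, 1.18) and the eIF2 phosphatase subunit gene PPP1R15A (109 TPM in TRIB1 and 52.5 TPM in control cells, 1.05). DDIT4, an mTOR inhibitor gene, fell (48.8 TPM in TRIB1 and 89.7 TPM in control cells, -0.86). The change of ATF3, DDIT3 and PPP1R15A was lower in DU145 than in PC3 and that of PYCR1 higher (limma adjusted p = 0.00192, 0.0233, 0.02 and 0.0346 for the difference).

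Cytosolic aminoacyl-tRNA synthetases, which charge tRNAs, rose in 1 of 20 cases in DU145 and in 4 of 20 in PC3, and 0 fell in either (medians 0.15 and 0.08). In the separate test of genes of at least 5 TPM, 1.37% rose and 3.86% fell in DU145, and 12.4% rose and 16.0% fell in PC3. SARS1, which charges tRNA with serine, rose in both, at 92.2 TPM in DU145 TRIB1 and 71.2 TPM in DU145 control cells (log2 change 0.37, limma adjusted p = 0.0379) and 223 TPM in PC3 TRIB1 and 122 TPM in PC3 control cells (log2 change 0.86, limma adjusted p = 0.00127). TARS1, WARS1 and IARS1 rose in PC3 as well (0.54, 0.51 and 0.47). Of 25 measured amino acid carriers other than this exchanger, 0 rose or fell in DU145 and 3 rose and 2 fell in PC3 (medians 0.10 and 0.04). Among all genes tested in PC3, 7.67% rose and 9.33% fell. The risen carriers in PC3 were SLC1A3, a glutamate carrier gene (19.9 TPM in TRIB1 and 6.40 TPM in control cells, log2 change 1.49), SLC38A1, a glutamine carrier gene (91.5 TPM in TRIB1 and 61.3 TPM in control cells, 0.57), and SLC7A2, a cationic amino acid carrier gene that was chosen after its values were seen (3.96 TPM in TRIB1 and 1.29 TPM in control cells, 1.116). SLC1A1 and SLC38A9 fell (-0.98 and -0.70).

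On the cytosolic side of folate metabolism, 2 of 12 measured genes fell and 1 rose in PC3. In the same test 9.33% of all genes fell and 7.67% rose in PC3. The separate test of genes of at least 5 TPM, a level that some of the 12 do not reach, gave 16.0% and 12.4%. MTHFD1, the cytosolic enzyme that takes up formate, fell to 125 TPM in PC3 TRIB1 cells, against 195 TPM in PC3 control cells (log2 change -0.63, limma adjusted p = 0.00561), and TYMS, thymidylate synthase, to 93.4 TPM in PC3 TRIB1 cells, against 165 TPM in PC3 control cells (log2 change -0.81, limma adjusted p = 0.00423). The gene that rose was MTHFS (0.38). In DU145, FOLR1, a folate receptor gene, rose (log2 change 2.14) and GGH, which trims folate chains, fell (-0.57), and MTHFD1 and TYMS did not pass (-0.07 and -0.04). The change of MTHFD1 and TYMS in DU145 exceeded that in PC3 by 0.56 and 0.77 (limma adjusted p = 0.0323 and 0.02). Other mitochondrial folate and glycine genes gave 0 rises and 1 fall of 12 in DU145 (DLD, -0.41) and 1 rise (MTHFD2L, 0.55) and 2 falls in PC3. Both falls there were of sideroflexins, SFXN3 (-0.85) and the mitochondrial serine carrier gene SFXN1 (-0.39).

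Purine synthesis and the methionine cycle, pathways with some steps that use one-carbon units, had 0 of 13 and 0 of 12 genes past the test in DU145. In PC3, IMPDH2, which acts on the way to guanine nucleotides, and AMD1, of polyamine synthesis, rose (0.37 and 0.52), while IMPDH1, PFAS, MAT2A and MTR fell (-0.76, -0.81, -0.52 and -0.57). Of 15 cell division genes 11 did not pass in PC3, BUB1 rose (0.56) and AURKA, CCNB1 and TOP2A fell (-0.24, -0.26 and -0.36), with a median of -0.24. In DU145 0 of 15 passed (median -0.04). In the separate test of genes of at least 5 TPM, 12.4% rose and 16.0% fell in PC3, and 1.37% rose and 3.86% fell in DU145. The part of cell division, of the epithelial and fibroblast marker sums and of the CD68 level in the changes of the 10 genes was not tested.

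**Figure D5:**
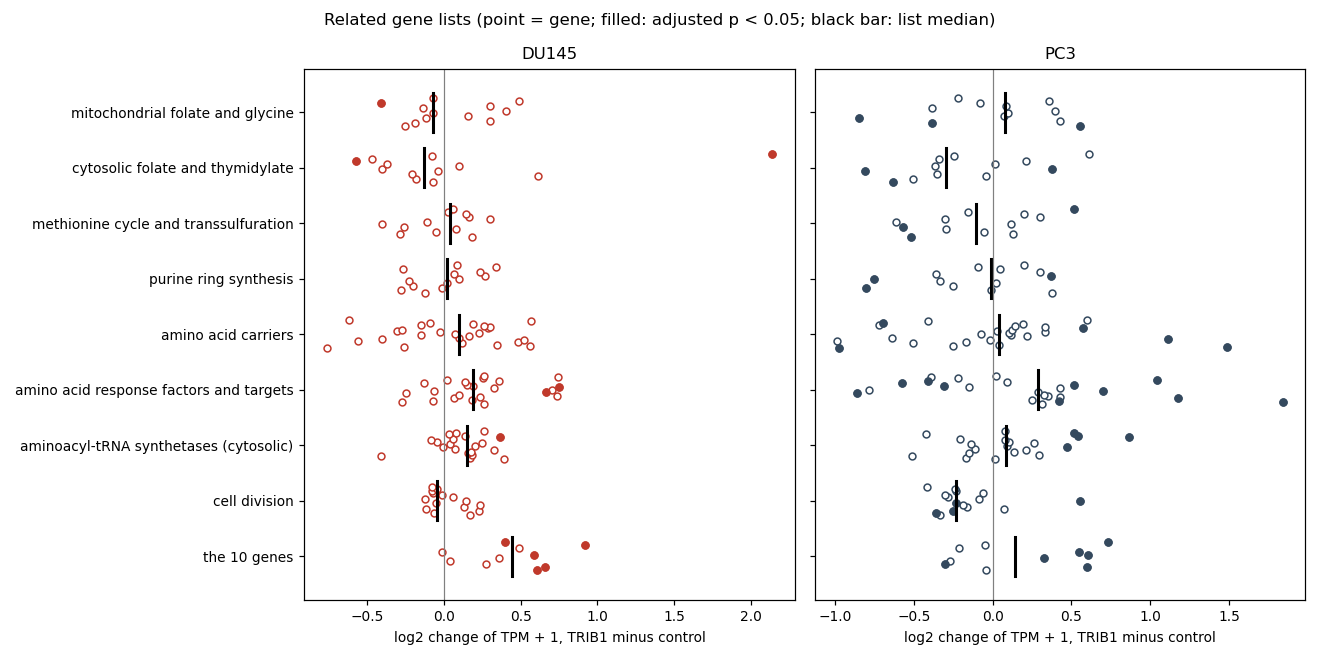
Log2 change of TPM + 1 (horizontal axes, TRIB1 minus control) of each measured gene of 8 related lists and of the 10 genes, in DU145 (left) and PC3 (right); filled points passed an adjusted p of 0.05 and black bars are medians. The median of the 10 genes is 0.45 in DU145 and 0.14 in PC3, and that of cytosolic folate genes is -0.13 and -0.30. The medians of the 10 count ALDH1L2, too low to compare in PC3. Without it the middle gene is SLC3A2, at 0.40, in DU145 and SHMT2, at 0.33, in PC3.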

How the data were processed

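RNA was sequenced in 8 libraries, 4 groups of 2, grouped by their titles. Values were deposited by the authors as TPM, and each column sums to 1000000 over 57905 genes. The submitters' processing notes name hg38 as build and, as tools, edgeR, DESeq, HTSeq and TopHat2 (2.0.14). For their roles, the annotation, the gene lengths behind TPM and any use of strand nothing is given in the sources used here. A TPM value is a share of a fixed total, so a gene group that takes up more RNA lowers the others, and depth and counting error are unknown. Intervals are printed as listed, and they do not match hg38: 365 of the 52338 identifiers also found in GENCODE 29 (GRCh38) start at the listed base. Current symbols were found by identifier for 51996 genes.

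The 25982 genes averaging 1 TPM or more in any group were kept and tested with limma 3.58.1 (R 4.3.3, mean-variance trend) on log2(TPM + 1) in 1 fit of all 8 libraries with 4 group means (4 residual and 1.89 prior degrees of freedom), with Benjamini-Hochberg adjustment and a threshold of 0.05. Alternatives were another pseudocount (0.1), no filter or 5 TPM, 2 scalings, removal of short RNAs and mitochondrial genes, no trend, each line alone, a replicate block and leaving out each library. The 10 genes and the lists were chosen with earlier results of these data known. All 10 genes were reported; of each list, per line, up to 4 genes with the smallest p past the threshold and at least 5 TPM in a group were named, and the 3 nearest profiles were given for the 4 of the 10 genes with the widest group means. ATF4, SLC7A2, STC2 and CD68 were named outside that rule, after their values were seen.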

Additional observations from a re-analysis of the deposited data

Results flagged for a closer look

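The change with TRIB1 differed between the lines for 3 of the 10 genes by a test of the difference itself (limma over 25982 genes, 2 libraries a group). DU145 change minus PC3 change came to 0.97 for SLC7A5 (adjusted p = 0.0398), 0.65 for PHGDH (adjusted p = 0.0359) and 0.58 for PSPH (adjusted p = 0.0306). In each case both DU145 TRIB1 libraries were above both DU145 controls. In PC3 both TRIB1 libraries were below both controls for PSPH and overlapped them for SLC7A5 and PHGDH. With 1 library left out, the adjusted p was 0.0125 to 0.137 for SLC7A5, 0.0239 to 0.12 for PHGDH and 0.0382 to 0.0904 for PSPH. Each library left out alone ended the PSPH call except the first DU145 control. Of these 8 refits, the PHGDH call held in the 2 that left out a DU145 TRIB1 library, and the SLC7A5 call in the 2 that left out a PC3 control.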

How the results depend on the processing

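Under 17 alternatives (16 between the lines), the direction of each change that passed was kept, but most DU145 calls were lost under several of them. The 5 risen genes in DU145 became 2 with no filter and 0 without the mean-variance trend, with the line fitted alone or with the replicate block, and 0 to 4 with 1 library left out. Over all genes, those that passed with a log2 change beyond 1 either way numbered 290 there and became 46 with the line alone, 11 with the block and 195 to 584 with 1 library left out. In PC3 the 5 risen genes became 3 with the line alone or the block and 2 to 5 with 1 library left out, and the 1 that fell became 0 with no filter, median-of-ratios or upper-quartile scaling, no trend, the line alone or the block, and 0 to 1 with 1 library left out. By the same fold and test, 1350 genes in PC3 became 833 with the block. Of the 3 differences between the lines, 1 held with no filter, 0 without the trend or with the block, and 0 to 1 with 1 library left out, while 1 lower difference appeared with the filter of 5 TPM and 0 to 1 with 1 library left out. By the same fold and test, 1330 genes for that difference became 74 with the block. Between the controls the 2 higher genes became 4 with median-of-ratios scaling, 1 without the trend or with the block, and 1 to 2 with 1 library left out. The labels do not say whether same-numbered libraries were made together. Over all genes tested, deviations of same-numbered libraries correlated at -0.04 in DU145 and -0.01 in PC3. Such a value over all genes cannot exclude a pairing or batch that acts on some of them. Values near 0 changed sign. For DU145, MTHFD1L was 0.060, 0.044 and 0.003 with median-of-ratios scaling, upper-quartile scaling and without short RNAs, and -0.129 to 0.101 with 1 library left out, and SHMT1 was -0.053 to 0.135. For PC3, PHGDH and SLC7A5 were 0.021 and 0.011 with median-of-ratios scaling, and -0.087 to 0.004 and -0.277 to 0.173 with 1 library left out. For the difference, MTHFD2 was 0.002, 0.010 and 0.015 under those 3 settings, and with 1 library left out MTHFD2 was -0.141 to 0.114, PSAT1 -0.006 to 0.129 and SHMT2 -0.070 to 0.132. The cause of these shifts was not tested. Depth is unknown, so no counting error is given, and ALDH1L2 had no value with PC3 alone.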

Other observations

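Related genes also differed between the lines without added TRIB1, as values only. Of 23 amino acid response factors and targets, 13 were higher and 4 lower in control PC3 than in control DU145 (limma adjusted p below 0.05), with a median log2 difference of 0.56 (PC3 minus DU145) against -0.18 over all genes tested. STC2, a secreted glycoprotein gene of that list, stood at 402 TPM in PC3 TRIB1 and 248 TPM in PC3 control cells, and at 25.4 TPM in DU145 TRIB1 and 26.5 TPM in DU145 control cells. Of 15 cell division genes 2 were higher and 10 lower in control PC3 (median -0.57). Amino acid carriers were higher in 7 and lower in 10 of 25 cases (median -0.13). Of all genes tested, 18.6% were higher and 28.4% lower in control PC3. That background depends on scaling, with 6099 genes higher and 5804 lower after median-of-ratios scaling, against 4840 and 7376 as deposited.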
